A study of Mus musculus with 12 samples.

Results

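Lymph node lymphatic endothelium that carries the hyaluronan receptor Lyve1 was described here as 682 single cells, taken from 5435 lymphatic endothelial cells and 50017 endothelium-enriched cells in 6 libraries. All 12 libraries of the study held 95358 cells. A cell was a member when it had at least 1 UMI (a molecular tag that marks 1 captured RNA molecule) of Prox1 or Mmrn1, which mark lymphatic endothelium, and at least 1 of Pecam1 or Cdh5, which mark endothelium. It also had at least 1 UMI of Lyve1 and none of Madcam1, Ackr4, Ptprc, Cd79a or Cd3e. Madcam1 marks the floor and Ackr4 the ceiling of the subcapsular sinus, and the last 3 mark leukocytes, B cells and T cells. These genes chose the members, so their values are given as a description and were not tested. Madcam1-positive lymphatic cells without Ackr4 numbered 931 and Ackr4-positive cells without Madcam1 numbered 2511. A further 1218 lymphatic cells had none of Lyve1, Madcam1 and Ackr4, and 93 had both Madcam1 and Ackr4.

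Lymph enters a node through the subcapsular sinus, percolates through cortical sinuses and leaves through medullary sinuses. Lymphatic endothelial cells line all of these spaces and differ by position. Those of the cortex and medulla are known for surface receptors that clear particles and macromolecules from lymph. Marco, a scavenger receptor for bacteria and modified lipoproteins, is known from medullary sinus endothelium. Ptx3, a secreted pentraxin that binds microbial surfaces, is known from paracortical sinus endothelium. Mrc1, the mannose receptor, and Lyve1 are shared by lymphatic endothelium and macrophages.

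The mice were C57BL/6, 7-10 weeks old. All carried floxed Atg12, a gene needed to build autophagosomes, and all were given tamoxifen 5 times. Mice labelled Cre-positive also had a tamoxifen-inducible Cre under the Cdh5 promoter, which is active across blood and lymphatic endothelium, and mice labelled Cre-negative lacked it. Each genotype was sampled after the solvent alone (vehicle, acetone with olive oil) and at day 3 and day 7 after 50 ul of 4% oxazolone, a contact sensitiser, on the abdominal skin. Nodes were digested and CD45-bearing cells were removed on beads, and the fraction left is labelled CD31. There was 1 library for each genotype and time, so no group has a replicate. For genes tested by genotype or time, p-values measure the spread between these 6 libraries after both are accounted for. Between classes of cells they measure how the class difference varied over the 6 libraries. The tests of shares did not account for time. Each list of 6 values below runs through vehicle, day 3 and day 7, and each time opens with its Cre-negative library.

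The members numbered 61 and 153 at vehicle, 66 and 107 at day 3, and 159 and 136 at day 7. They made up 6.08%, 18.8%, 12.1%, 14.3%, 13.0% and 12.3% of the lymphatic cells of their library. The share at vehicle Cre-negative was the lowest and that at vehicle Cre-positive the highest. Their median depth was 5255 to 8331 UMIs per cell, and the summed UMIs per library ran from 392541 to 1261134. Library totals ran from 45438350 to 76187731 UMIs. No member barcode occurred in more than 1 library. The libraries differed in the sexes they held. UMIs of Y-linked genes were found in 27.9%, 83.7%, 19.7%, 55.1%, 41.5% and 22.1% of members, and Xist, made from the inactive X chromosome, in 49.2%, 0%, 74.2%, 25.2%, 54.1% and 47.8%. The vehicle Cre-positive library had no member with Xist, and the other 5 had members of both kinds, so these 5 hold cells of both sexes. How many mice went into a library is not given in the sources used here.

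Atg12, the gene targeted in the mice labelled Cre-positive, stood at 66.2, 81.7, 46.7, 64.8, 59.3 and 65.6 CPM in the members. CPM are UMIs of a gene scaled to the same total of UMIs in every library, here summed over the members. Since 1 tag is counted per molecule, CPM need no correction for gene length. The level was higher in the library labelled Cre-positive at each of the 3 times, with a log2 difference of 0.31 (SE 0.21, edgeR's quasi-likelihood test, adjusted p = 1). The kit reads transcripts at their 3-prime end, and whether those reads lie in the deleted part of Atg12 is not given in the sources used here. The genotypes are therefore named by their labels.

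The label of cortical and medullary sinus cells was checked with Marco, Ptx3 and Mrc1, which played no part in choosing the cells. The remaining marker of the label, Lyve1, is part of the rule and checks nothing, so its levels are only a description. Lyve1 stood at 1567, 1238, 1235, 1246, 1065 and 1549 CPM in the members. In Madcam1-positive cells its lowest, median and highest level was 279, 376 and 398 CPM, and in Ackr4-positive cells 77.9, 180.1 and 233. Lyve1 was thus not confined to the members. Over the libraries it had a UMI in 65.1% to 79.4% of Madcam1-positive cells and 8.12% to 20.5% of Ackr4-positive cells. Marco lies on the minus strand at chr1:120474538-120505024 and Ptx3 on the plus strand at chr3:66219910-66225805 of mouse build GRCm38. Mrc1 is at chr2:14229392-14332057 on the plus strand and Lyve1 at chr7:110850607-110863239 on the minus strand. Because Marco and Ptx3 split the members as described below, the 250 bases before each RefSeq start are shown with those of Mrc1, which both kinds carried. They are RefSeq sequences on GRCm38.p6, written 5′ to 3′ on the gene's own strand, at chr1:120505025-120505274, chr3:66219637-66219886 and chr2:14229164-14229413. Capitals mark matches to AGGAAG on either strand.
Marco: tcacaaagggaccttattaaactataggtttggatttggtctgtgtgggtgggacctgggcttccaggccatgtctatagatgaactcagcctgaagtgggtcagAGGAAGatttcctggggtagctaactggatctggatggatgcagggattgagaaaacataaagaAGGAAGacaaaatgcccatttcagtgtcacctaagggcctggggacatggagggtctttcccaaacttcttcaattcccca
Ptx3: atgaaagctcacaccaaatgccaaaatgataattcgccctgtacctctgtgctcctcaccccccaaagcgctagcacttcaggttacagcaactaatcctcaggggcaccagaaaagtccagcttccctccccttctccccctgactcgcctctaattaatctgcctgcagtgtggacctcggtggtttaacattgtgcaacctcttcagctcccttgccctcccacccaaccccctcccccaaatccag
Mrc1: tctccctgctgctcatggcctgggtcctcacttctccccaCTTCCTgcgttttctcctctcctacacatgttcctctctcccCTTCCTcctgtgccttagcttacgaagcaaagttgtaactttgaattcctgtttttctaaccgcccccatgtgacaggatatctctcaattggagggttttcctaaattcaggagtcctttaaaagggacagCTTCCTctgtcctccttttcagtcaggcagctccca
The search covered AGGAAG, the core bound by the myeloid factor PU.1 and other ETS proteins. It also covered TGACTCA, the AP-1 site, AGGTCA, one arm of nuclear receptor sites, and TGCTGA, the core of the site bound by Maf proteins, each on both strands. The Marco window held AGGAAG 145 and 81 bases before the start. The Mrc1 window held it at 210, 168 and 36 bases. In the Ptx3 window none of the 4 motifs was found, and the other 3 motifs were in none of these windows. Over all 32851 promoters of the same length, 29.5% hold AGGAAG. The other 3 occur in 4.46%, 14.0% and 16.1%.

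Marco, Ptx3 and Mrc1 were each detected in a larger share of the members than of Madcam1-positive or Ackr4-positive cells in all 6 libraries. Marco had a UMI in 11.5%, 41.8%, 28.8%, 21.5%, 17.6% and 19.1% of members. It had one in 3.25% to 8.99% of Madcam1-positive cells, 0.913% to 4.50% of Ackr4-positive cells and 0.586% to 1.66% of B cells, whose median depth was 2757 to 3348 UMIs per cell. Free RNA held Marco at 78.1 to 425 CPM, against 306 to 1325 in members and 1.83 to 24.0 in B cells. Ptx3 had a UMI in 23.0%, 7.84%, 15.2%, 30.8%, 17.0% and 27.2% of members, against 0% to 2.99% of Madcam1-positive, 3.60% to 7.01% of Ackr4-positive and 0% to 0.138% of B cells. Mrc1 had a UMI in 39.3%, 52.9%, 45.5%, 57.9%, 49.7% and 50.7% of members and in at most 6.50% of Madcam1-positive, 8.11% of Ackr4-positive and 1.40% of B cells. Free RNA held Ptx3 at 0.634 to 11.4 CPM and Mrc1 at 24.8 to 55.2, against 24.6 to 160.2 and 219 to 316 in members. No Ptx3 was found in 123 and 143 Madcam1-positive cells at vehicle, which allows shares of up to 2.44% and 2.10%, and the 5 libraries with no Ptx3-positive B cell allow up to 0.304% to 0.845%. The 3 markers outside the rule were thus more frequent in members in every library, but at most 41.8% of members carried Marco and at most 30.8% carried Ptx3. The lowest Ptx3 share of members, 7.84% at vehicle Cre-positive, lay close to the highest share of Ackr4-positive cells, 7.01%. When each cell was thinned to 1000 UMIs, the Marco shares were 6.56%, 30.7%, 19.7%, 15.9%, 11.9% and 15.4%, and those of Ptx3 were 8.20%, 2.61%, 6.06%, 17.8%, 4.40% and 8.82%.

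**Figure D1:**
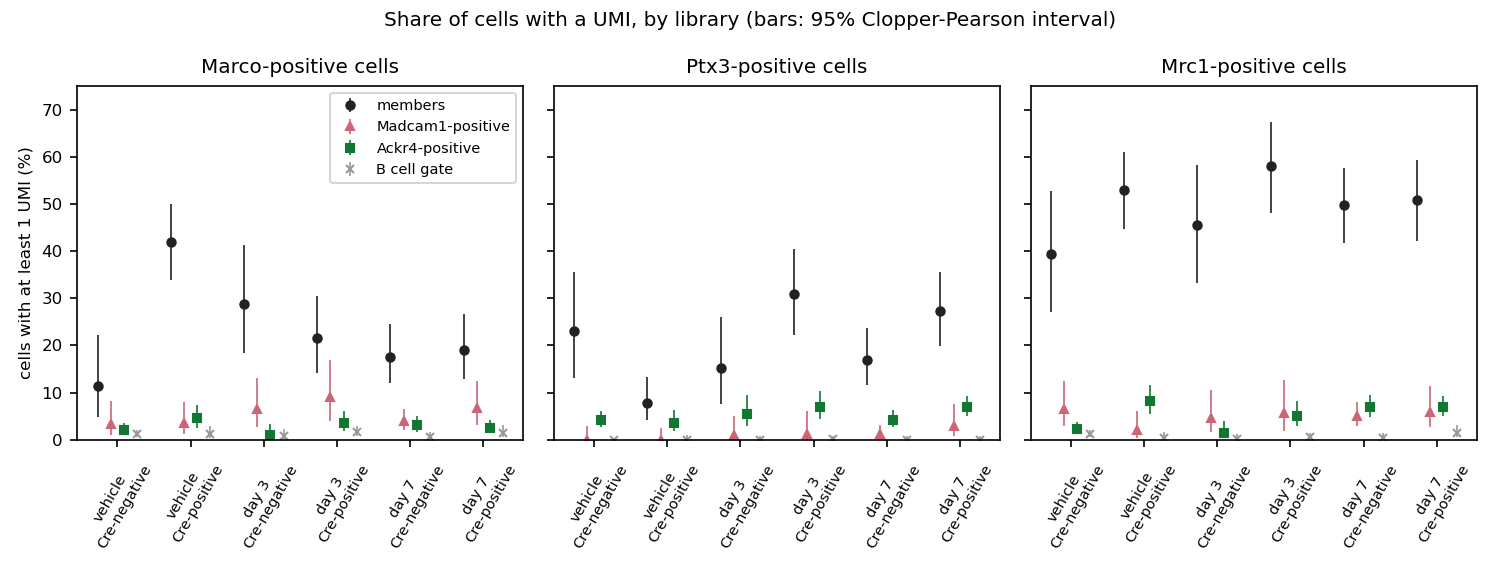
Share of cells (%) with at least 1 UMI of Marco, Ptx3 or Mrc1 in each of the 6 libraries, for the members, both neighbouring lymphatic classes and B cells, with 95% Clopper-Pearson intervals that cover counting error only. The members lie above the other classes in every library. Their Marco share is highest (41.8%) and their Ptx3 share lowest (7.84%) at vehicle Cre-positive.

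Markers of leukocytes were low in the members. The rule left out cells with a UMI of Ptprc, Cd79a or Cd3e, so these values are a description and not an independent check. The 8 macrophage markers summed to 104 CPM at vehicle Cre-negative and to 5.61 to 15.3 in the other libraries, 6 of them had a UMI, and the defining genes Adgre1 and Siglec1 were at 0 in all 6 libraries. B cell markers summed to 104 CPM at vehicle Cre-negative and to 9.34 to 29.1 in the others, and granulocyte markers to 30.6 and to 0 to 0.831. T cell markers summed to 0.831 to 20.03 CPM. The vehicle Cre-negative library, which has the fewest members, thus stood apart in macrophage, B cell and granulocyte markers but not in T cell markers. The part of leukocyte RNA in the comparisons with vehicle was not tested. Markers of high endothelial venules, the vessels that admit lymphocytes, summed to 799 to 8529 CPM. Glycam1, a secreted mucin of those venules, alone made up 525 to 8022 CPM, with 53.0% to 75.5% of its UMIs in the 3 richest cells of each library. It was at 8484 to 15384 CPM in Madcam1-positive lymphatic cells. The part of these venules' RNA in the members' values was not tested.

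Marco, Ptx3 and Mrc1 were found more often in cells with more Lyve1 UMIs. Among lymphatic cells without Madcam1 and Ackr4, Marco was found in 2.55% of the 1218 cells with no Lyve1 UMI. It was found in 11.9% of the 135 cells with 1 UMI, 15.3% of the 163 with 2 to 4 and 32.8% of the 384 with 5 or more. Ptx3 was found in 1.64%, 4.44%, 11.7% and 28.1% of the same groups, and Mrc1 in 2.13%, 17.0%, 36.8% and 68.2%. All 3 genes were thus rarer just inside the threshold of 1 Lyve1 UMI than deep inside it. Depth differed between these groups too, with a median over the cells of each library of 3109 to 5149 UMIs at no Lyve1 UMI, 2098 to 6055 at 1, 4181.5 to 6672 at 2 to 4 and 7780 to 9136.5 at 5 or more. The part of depth in these shares was not tested.

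Marco and Ptx3 were seldom found in the same cell. Of the 682 members, 157 (23.0%) had Marco alone, 123 (18.0%) had Ptx3 alone, 10 (1.47%) had both and 392 (57.5%) had neither. Marco was present in 7.52% of the 133 Ptx3-positive members and in 28.6% of the 549 members without Ptx3. Mrc1 was found in 67.5% of members with Marco alone, 80.5% of those with Ptx3 alone, all 10 with both and 33.2% of those with neither. These shares are pooled over libraries, and cells of a library share its depth and free RNA.

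To describe the 2 kinds, UMIs were summed per library over the cells with Marco alone and over those with Ptx3 alone, giving 12 sums from 6 libraries. Genes were tested with edgeR's quasi-likelihood test with the library as a block, and called at a Benjamini-Hochberg adjusted p under 0.05. Marco and Ptx3 define the 2 sets and were left out. The smallest sums hold 7 cells with Marco and 9 with Ptx3. Median depth per cell was 7441 to 11587 UMIs with Marco, 6189 to 8365 with Ptx3 and 4260.5 to 7669.5 with neither. Of 3933 genes, 533 were called (13.6%), 335 of them higher with Marco (8.52%) and 198 higher with Ptx3 (5.03%). Genes that vary along with Marco or Ptx3 are what this choice of cells selects, so the changes describe the 2 kinds and do not show that they are separate types.

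The genes with the largest differences towards members with Marco alone were led by Pcdh15 and included a further scavenger receptor, Msr1. Pcdh15, a protocadherin of inner ear hair cells, had a lowest, median and highest level over the libraries of 343, 985 and 1376 CPM with Marco and 0, 6.46 and 12.6 with Ptx3. The 2 kinds did not overlap, and the log2 difference was 7.17 (SE 0.35, edgeR adjusted p = 1.11e-10). Msr1, scavenger receptor A, which takes up modified lipoproteins as Marco does, was at 271, 523 and 583 CPM with Marco and 0, 24.6 and 28.8 with Ptx3. Its log2 difference was 4.38 (SE 0.27, edgeR adjusted p = 1.56e-09). Magi2, a scaffold protein of cell junctions, had 444 UMIs over all cells with Marco and 3 over all cells with Ptx3. Scaled to the total UMIs, that is a ratio of 113 with an exact 95% counting interval of 38.4 to 550.4. Ptn, the growth factor pleiotrophin, was higher with Marco by a log2 value of 4.88, and Ptger4, a receptor for prostaglandin E2, by 4.83. Sgcz, a sarcoglycan, differed by 4.99 and Pde1c, a phosphodiesterase of cyclic nucleotides, by 4.66. Tll1, a secreted metalloprotease, differed by 4.38 and Csmd1, a membrane protein with complement-regulating domains, by 4.36. Slc16a12, a transporter, Dnajc6, a cofactor for uncoating clathrin vesicles, and Sncg, a synuclein, differed by 4.27, 4.16 and 4.03. The 12 genes were higher with Marco in 6 of 6 libraries and their 2 ranges did not overlap. They were chosen as the largest called changes, which favours both, so this only describes them.

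The genes with the largest differences towards members with Ptx3 alone included Apba2, Thy1, Angpt2 and Itih5. Apba2, an adaptor protein best known from neurons, had 113 UMIs over all cells with Ptx3 and 1 over all cells with Marco, a scaled ratio of 148 with an exact 95% counting interval of 26.0 to 5892. Thy1, a surface glycoprotein of lymphatic and other stromal cells, was at 187, 241 and 300.2 CPM with Ptx3 and 0, 22.8 and 40.1 with Marco. The log2 difference was -3.20 (SE 0.28, edgeR adjusted p = 1.05e-07), without overlap. Angpt2, an angiopoietin needed for lymphatic development, was at 114, 186 and 259.6 CPM with Ptx3 and 5.72, 16.9 and 32.4 with Marco, a log2 difference of -3.29. Itih5, a protein that binds hyaluronan-rich matrix, was at 134, 196 and 409 CPM with Ptx3 and 0, 21.9 and 111 with Marco, a log2 difference of -2.96. Adam12, a membrane metalloprotease, differed by -3.92 and Lsamp, an adhesion protein of the neural cell surface, by -3.79. Pgm5, a protein of adherens junctions, Tc2n, a C2-domain protein, and Sgcd, a sarcoglycan, differed by -3.94, -3.46 and -3.41. Fibin, a secreted protein, Iqgap2, a scaffold of the cytoskeleton, and Tspan18, a tetraspanin, differed by -3.31, -2.95 and -2.92. All 12 were higher with Ptx3 in 6 of 6 libraries, which their choice as the largest called changes favours. The ranges of Lsamp and Fibin overlapped between the 2 kinds.

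**Figure D2:**
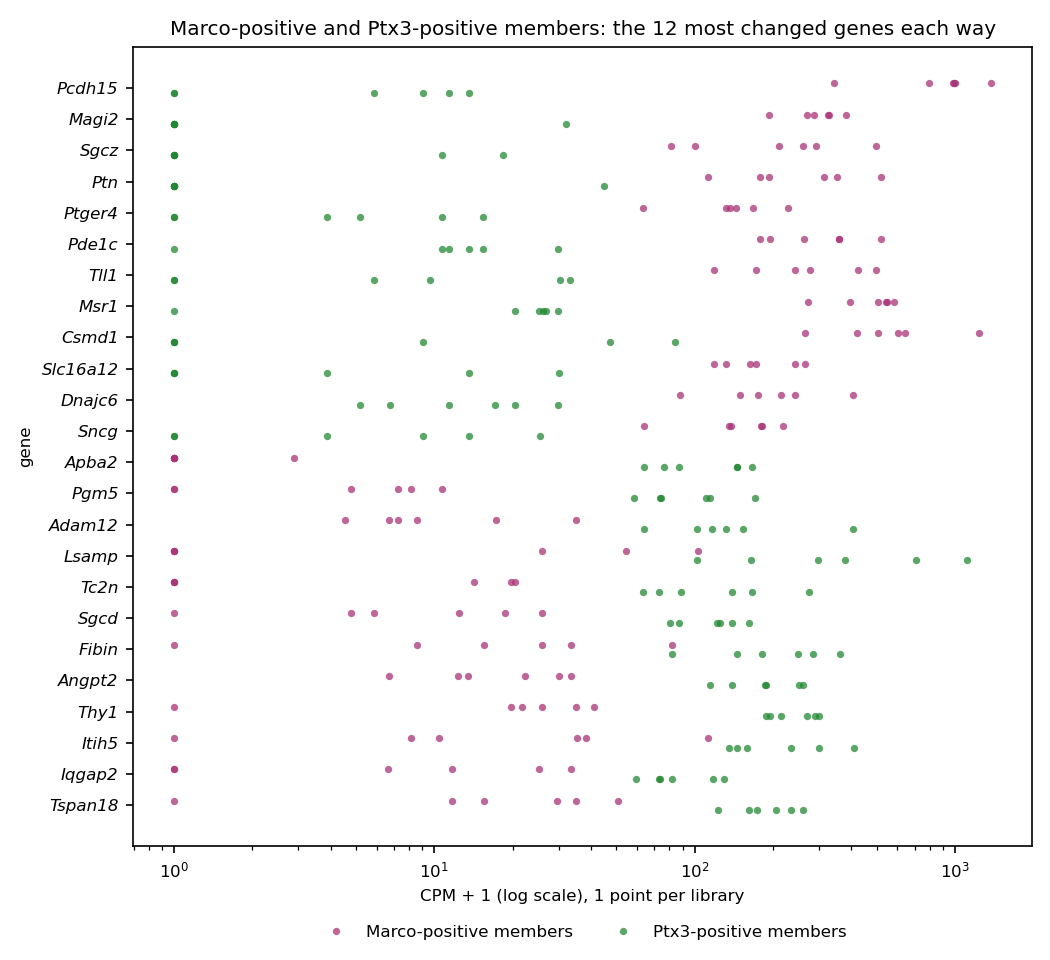
Levels (CPM + 1, log axis) of the 12 most changed called genes in each direction, with 1 point per library for members with Marco alone and members with Ptx3 alone. The points of the 2 kinds are separate except for Lsamp and Fibin, and Pcdh15 reaches 1376 CPM with Marco while it stays at or below 12.6 with Ptx3.

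Receptors for uptake did not move as one group. Of 9 scavenger and lectin receptors tested, Msr1 was higher with Marco and 3 were higher with Ptx3. Over all 3933 genes 8.52% and 5.03% were called in these directions. The list median was -0.19 beside -0.01 over all genes. Over the alternatives 1 to 3 were higher with Ptx3, the fewest without the day 7 Cre-positive library. Mrc1 was at 155, 202 and 359 CPM with Marco and 404, 596 and 994 with Ptx3, a log2 difference of -1.31 (SE 0.21, edgeR adjusted p = 0.000182). Stab2, a scavenger receptor for hyaluronan, differed by -0.46 and Cd36, a fatty acid and lipoprotein receptor, by -1.36. Msr1 was thus higher in the kind chosen by Marco, and Mrc1, Stab2 and Cd36 were higher in the other. The ranges of Stab2 and Cd36 overlapped between the kinds, and the Stab2 call was lost under 6 of 13 alternatives. In the pan-lymphatic list, 5 of 11 genes were higher with Ptx3, against 5.03% over all genes. Among them were Reln (-1.97), a secreted matrix protein, Nrp2 (-1.004), a co-receptor for VEGF-C, and Flt4 (-0.77), the VEGF-C receptor. Nr2f2, a transcription factor of venous and lymphatic fate, was higher with Marco (0.45). The list median was -0.46.

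Growth factor, adhesion and immediate-early genes that passed the test were mostly higher with Marco. In the survival and growth factor list, 4 of 9 genes were higher with Marco and 1, Angpt2, was lower. Bmp2, a bone morphogenetic protein, was at 141, 229 and 469 CPM with Marco and 14.4, 26.5 and 41.4 with Ptx3, a log2 difference of 3.53. Il33, an alarmin cytokine, differed by 3.39, Igf1 by 3.01 and Csf1, the macrophage growth factor, by 2.65. Adhesion genes were called higher in 3 of 8 and lower in none: Vcam1 (2.37) and Icam1 (0.95), which bind leukocyte integrins, and the integrin chain Itga2b (1.45). Cd274, the checkpoint ligand PD-L1, was higher by 1.81 and Cd74, the invariant chain of MHC class II, by 2.24. In MHC class I presentation 2 of 10 genes were called, near the 13.6% called over all genes, both higher: Psmb8 (0.62), an immunoproteasome subunit, and B2m (0.34), the light chain. Immediate-early genes, which rise within minutes of a stimulus, were higher in 9 of 17 and lower in none, with a list median of 0.81. Among them were Fosb (1.75), Junb (1.05) and Egr1 (0.81). Of 10 interferon response genes none was called. The calls of B2m, Egr1, Junb, Nr2f2 and Stab2 were the least stable, lost under 10, 8, 7, 6 and 6 of 13 alternatives, and the count of immediate-early genes ran from 5 to 12.

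The members with neither Marco nor Ptx3 carried Coch, Mmp9 and Ccl20, genes that were high in the Madcam1-positive cells of the sinus floor. Coch, a matrix protein, had a lowest, median and highest level of 14.5, 118 and 180.0 CPM in them. It was at 0, 0.944 and 14.2 CPM with Marco and at 0, 0 and 2.88 with Ptx3, against 708, 970.5 and 1106 in Madcam1-positive cells. Mmp9, a gelatinase, was at 33.0, 83.0 and 113 CPM with neither, 7.55, 15.4 and 24.9 with Marco, 0, 0 and 4.19 with Ptx3 and 276, 359.6 and 436 in Madcam1-positive cells. Ccl20, a chemokine for cells with CCR6, was at 46.3, 173 and 1274 CPM with neither, 0, 0 and 205 with Marco, 0, 0 and 5.77 with Ptx3 and 363, 1446 and 3084 in Madcam1-positive cells. Mrc1 was lower with neither, at 116, 167 and 207 CPM, than with Ptx3. The medians of Coch, Mmp9 and Ccl20 lay between the Marco or Ptx3 kind and the Madcam1-positive cells. The part of cells whose Madcam1 went undetected was not tested. Not all genes higher in Madcam1-positive cells than in members followed these. Csf1 and Cd274 had medians of 605 and 106 CPM with Marco, and of 599 and 105 in Madcam1-positive cells.

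**Figure D3:**
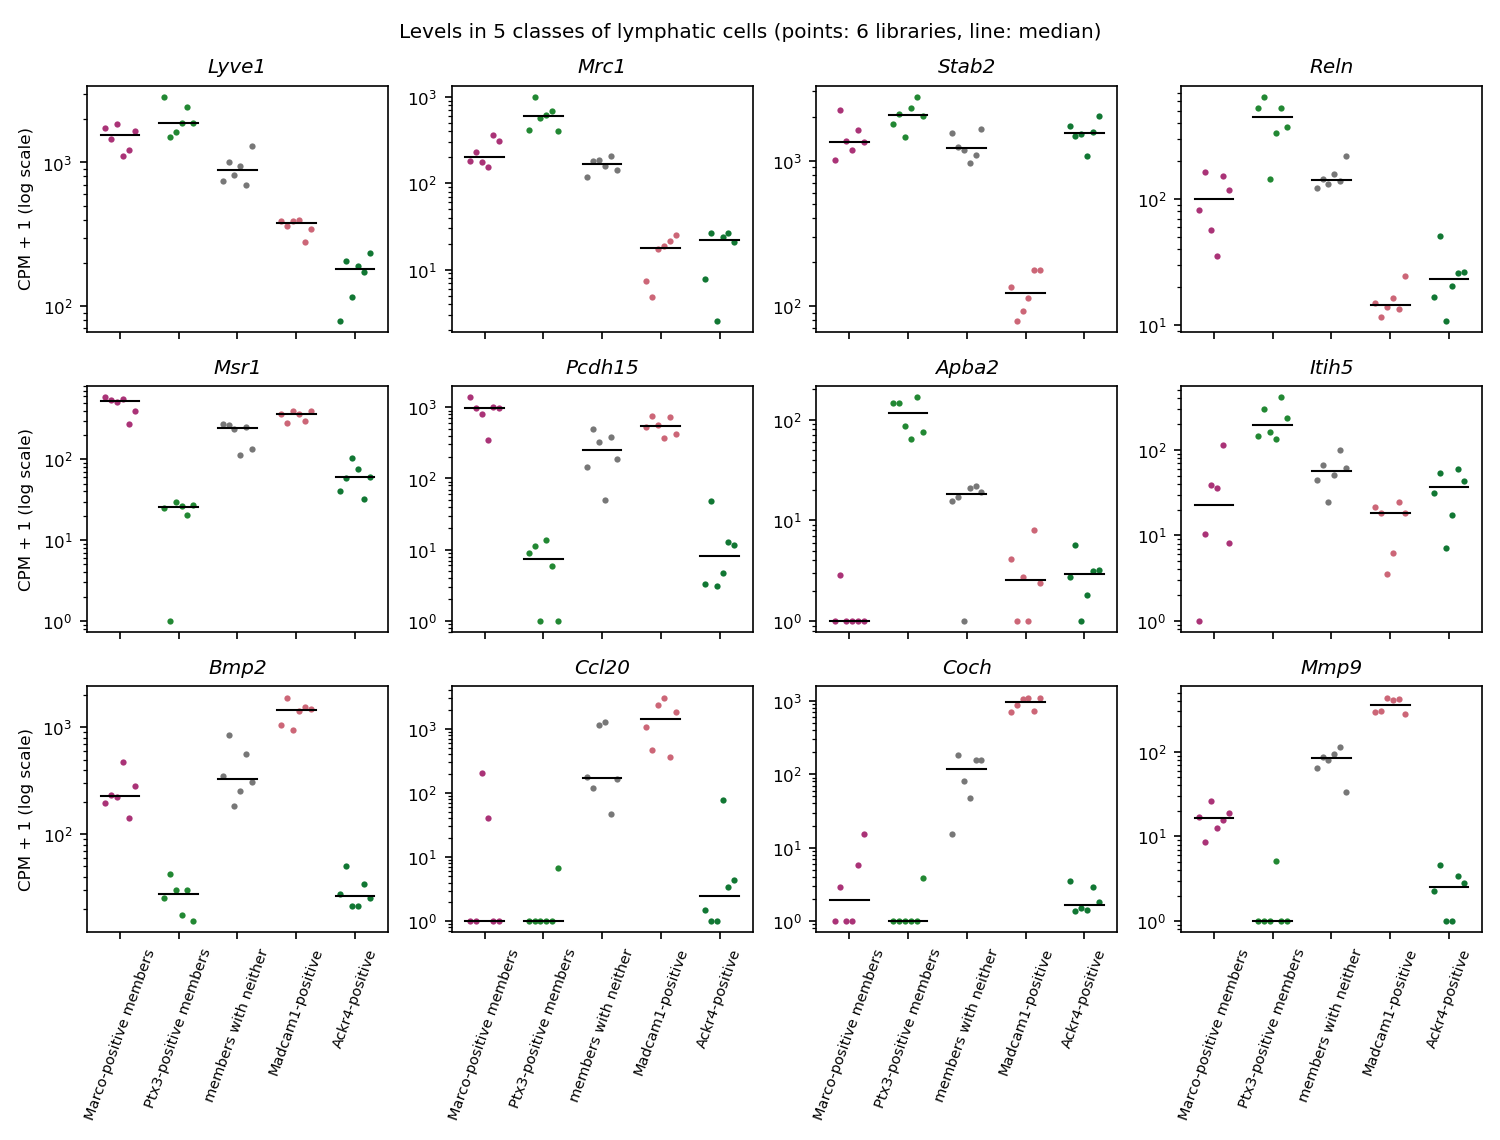
Levels (CPM + 1, log axis) of 12 genes in 3 kinds of members and in both neighbouring lymphatic classes, with 1 point per library and a line at the median. Members with neither Marco nor Ptx3 hold Coch, Ccl20, Mmp9 and Bmp2 at levels between the Ptx3 kind and the Madcam1-positive cells. Bmp2 is also carried by the Marco kind, at a median of 229 CPM against 26.5 in the Ptx3 kind.

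Set against Madcam1-positive lymphatic cells of the same libraries, most scavenger and lectin receptors were higher in the members, and most genes of MHC class I presentation and most immediate-early genes were lower. In this comparison 3051 of 9676 genes were called (31.5%), 1420 higher in members (14.7%) and 1631 lower (16.9%). Both sets were chosen by single genes, and the genes of the membership rule were left out. The members' sums include the 392 cells with neither Marco nor Ptx3. DESeq2 called 1991 genes in place of 3051.

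Among the genes higher in members, Mrc1 was at 219, 264 and 316 CPM in members and 3.79, 16.9 and 24.4 in Madcam1-positive cells (lowest, median and highest), a log2 difference of 4.00 (SE 0.20, edgeR adjusted p = 5.13e-09). Stab2 was at 1289, 1508 and 1727 CPM in members and 78.0, 123 and 176 in Madcam1-positive cells, a log2 difference of 3.45 (SE 0.14, edgeR adjusted p = 1.44e-09). Reln was at 108, 197 and 242 CPM and 10.6, 13.5 and 23.7, a difference of 3.57. None of these ranges overlapped. Ptx3 itself differed by 4.12 and Marco by 3.00. Of 12 scavenger and lectin receptors, 8 were higher in members and 2 lower, with a list median of 0.89 beside -0.00225 over all genes. Stab1 (1.33) and Cd36 (1.67) were among the higher, and Msr1 (-0.71) was lower, at 169, 229 and 358 CPM in members and 281, 364 and 393 in Madcam1-positive cells. Lymphatic identity genes were higher in 10 of 12 and lower in 1, against 14.7% and 16.9% over all genes. Flt4 differed by 1.66 and Nrp2 by 1.26. The genes with the largest differences included Scn3a (6.02), a sodium channel, Thy1 (4.37), Lsamp (4.36) and Adarb2 (4.35), an RNA-binding relative of the editing enzymes. Others were Gdf10 (4.25), a growth factor of the TGF-beta family, Pcsk6 (4.18), a convertase of secreted proproteins, and Nts (3.75), the peptide neurotensin. Ntn4 (3.84), a netrin of basement membranes, Tc2n (3.87) and Pld5 (3.90) completed the 12. Spns2, which exports sphingosine 1-phosphate into lymph and so guides lymphocytes out of the node, was higher by 2.02, and Il7, a lymphocyte survival factor, by 1.08. Both were called lower in members than in Ackr4-positive cells. Their medians were 138 and 54.6 CPM in members and 214 and 71.4 in Ackr4-positive cells. Against Madcam1-positive cells, lysosome genes were higher in 7 of 15 and lower in 2.

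Coch led the genes that were lower in members than in Madcam1-positive cells. Coch was at 7.64, 60.2 and 103 CPM in members and 708, 970.5 and 1106 in Madcam1-positive cells, a log2 difference of -4.12 (SE 0.28, edgeR adjusted p = 7.85e-08). Lamb3 (-3.66) is a chain of a laminin of epithelial basement membranes. Lpar1 (-3.57) and S1pr3 (-3.38) are receptors for lysophospholipids. Ccl20 (-3.15) and Pf4 (-3.04) are chemokines, Mmp9 (-3.12) and Mme (-3.33) are proteases, and Lcn2 (-3.27) sequesters iron carriers of bacteria. Cntn1 (-3.26), a neural adhesion protein, and Dbx2 (-3.19), a homeobox factor, were lower as well. The range of Ccl20 overlapped between the classes, and those of the other 10 did not, which their choice as the largest called changes favours. Of the MHC class I presentation genes 9 of 10 were lower, with a list median of -0.35, among them B2m (-0.39) and Psmb8 (-0.64). Immediate-early genes were lower in 15 of 18 and higher in 2, Klf2 (0.91) and Klf4 (1.02), which respond to flow. Their median was -0.95, and Junb differed by -1.28 and Fos by -1.12. Vcam1 (-1.54), Icam1 (-0.86), Csf1 (-0.91), Bmp2 (-2.47) and Cd274 (-0.64) were lower too, though they were higher in the Marco kind than in the Ptx3 kind. Glycam1 differed by -2.81.

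Against Ackr4-positive lymphatic cells, 9 of 15 lysosome genes were higher in the members and none lower, and most immediate-early genes were lower. Here 3108 of 10289 genes were called (30.2%), 1572 higher in members (15.3%) and 1536 lower (14.9%). Mrc1 was at 219, 264 and 316 CPM in members and 1.55, 21.2 and 25.6 in Ackr4-positive cells, a log2 difference of 3.94 (SE 0.24, edgeR adjusted p = 5.46e-08). Marco differed by 4.00, Ptx3 by 2.60 and Msr1 by 1.98. Stab2 was at 1289, 1508 and 1727 CPM in members and 1077, 1547 and 2022 in Ackr4-positive cells, with a difference of -0.07 (SE 0.08) that was not called (edgeR adjusted p = 0.555). Cd36 was lower in members (-2.37). Of 12 lymphatic identity genes 7 were higher in members and 4 were lower: Fxyd6, Sox18, Pdpn and Tbx1. Lysosome genes were higher in 9 of 15 and lower in none, with a list median of 0.26 beside -0.0073 over all genes, and Ctsd, an aspartic protease of lysosomes, differed by 1.27. The number of lysosome genes called higher fell to 5 without the vehicle Cre-positive library or with no expression filter, which also called 2 lower, and to 6 with DESeq2 or without the day 7 Cre-negative library. Of 17 genes of protein folding in the endoplasmic reticulum 6 were called, near the 30.2% called over all genes. All 6 were higher, and the list median was 0.17. The number called was 3 with no expression filter and 4 with DESeq2 or without the vehicle Cre-negative or the day 3 Cre-positive library.

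Several genes higher in members than in Ackr4-positive cells are those of the floor named above. Coch was at 7.64, 60.2 and 103 CPM in members and 0.361, 0.665 and 2.51 in Ackr4-positive cells, a log2 difference of 5.52. Pcdh15, not a floor gene but the one that led the Marco kind above, was at 99.0, 374 and 657 CPM in members. In Ackr4-positive cells it was at 2.07, 7.10 and 46.9 CPM, a difference of 5.02. Mmp9 (4.63) and Ccl20 (4.60) moved the same way, as did Bmp2 (3.26), which was also higher in the Marco kind than in the Ptx3 kind. Brinp1 (5.74) and Astn1 (4.27) are neural proteins, Rgs4 (4.15) damps G protein signals, and Cd226 (4.10) is a receptor for nectin-like ligands. Prr16 (4.47) and B3galt1 (4.14), a galactosyltransferase, were also among the 12. Reln (3.00), Kcnj8 (3.21), a potassium channel, Clec4g (2.08), a lectin of sinus endothelium, Il33 (2.71) and Cd274 (1.39) were higher as well. Kcnj8, Clec4g and Il33 were not called between members and Madcam1-positive cells. Their medians were 30.9, 30.2 and 398 CPM in members and 31.8, 39.1 and 453 in Madcam1-positive cells. Of the 3 kinds of members, the one with neither Marco nor Ptx3 had the highest median of Coch, Mmp9 and Ccl20.

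Bgn and Car8 were among the genes with the largest differences towards Ackr4-positive cells. Bgn, the matrix proteoglycan biglycan, was at 6.34, 12.5 and 21.6 CPM in members and 240.0, 249 and 275 in Ackr4-positive cells, a log2 difference of -4.34 (SE 0.17, edgeR adjusted p = 1.88e-09). Car8 (-4.91), a carbonic anhydrase relative, Pdlim3 (-4.48), an actin-binding protein, Cryab (-4.26), a small heat shock protein, and Dkk2 (-4.20), a modulator of Wnt signals, led the list. They were followed by Tmem158 (-4.14), Klrb1f (-3.90), Pkhd1l1 (-3.68), Ccdc3 (-3.67), Plac8 (-3.56), Myof (-3.44) and Ackr3 (-3.31), a scavenging receptor for CXCL12. Foxc2 (-1.97), a transcription factor of lymphatic valves, Gja4 (-2.03), a connexin of the same valves, and Pdgfb (-1.32) were lower. The other called genes of the valve and collecting vessel list, Clu, Neo1 and Cldn11, were higher, so 3 of 6 were higher and 2 lower, with a list median of -0.05. Junction and diaphragm genes were lower in 5 of 12 and higher in 1, with Cldn5 at -0.60. Immediate-early genes were lower in 13 of 18 and higher in none, with a median of -0.75, and here Klf2 (-1.17) was lower, opposite to its difference from Madcam1-positive cells.

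**Figure D4:**
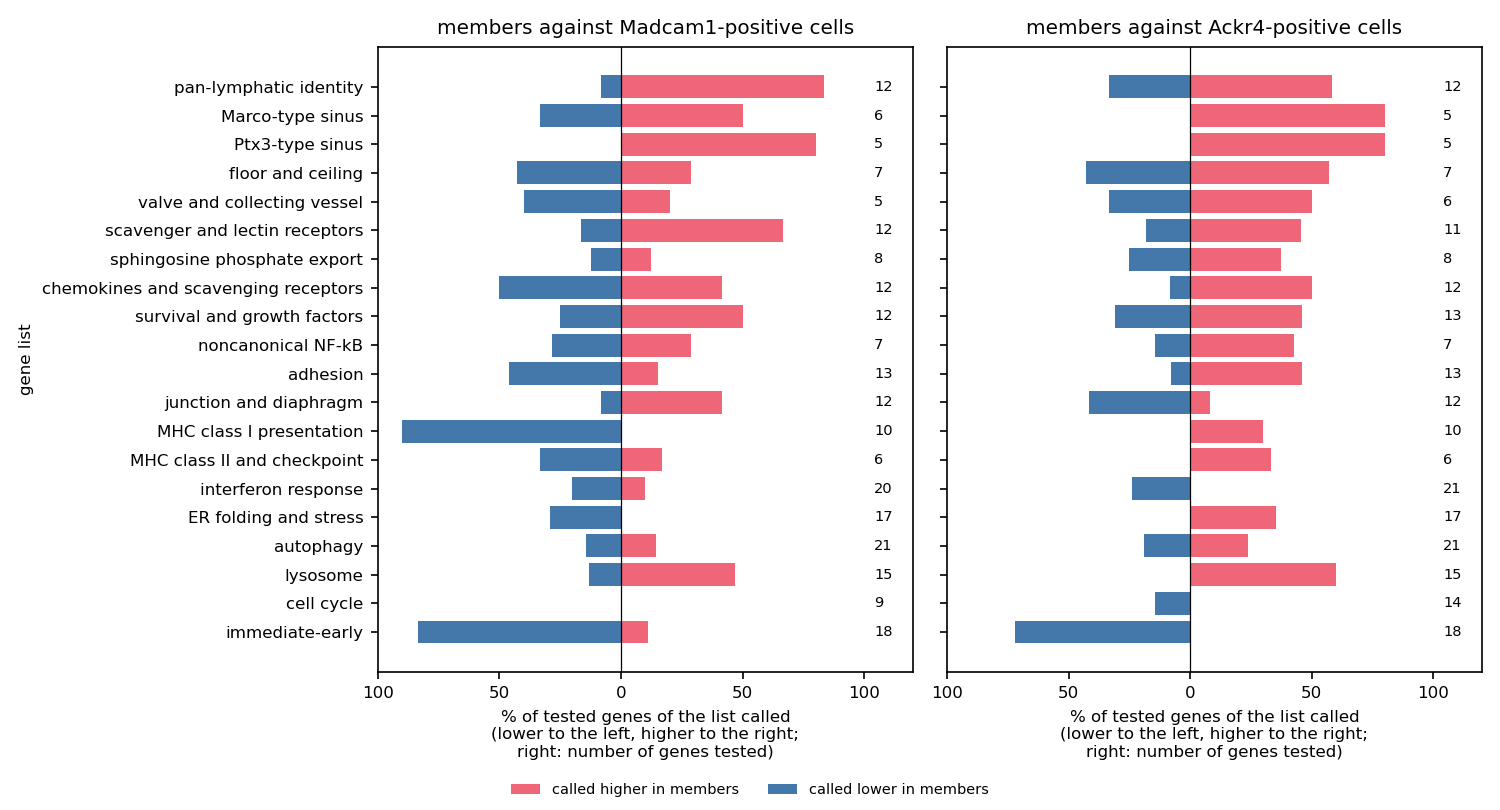
Share of each gene list's tested genes (%) called lower (bars to the left) or higher (bars to the right) in members than in Madcam1-positive or Ackr4-positive cells, with the number of genes tested at the right. Immediate-early genes lean to the left in both panels (15 of 18 and 13 of 18 called lower), while MHC class I genes do so against Madcam1-positive cells (9 of 10).

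The share of members with Marco was not shown to differ between genotypes. It was 27.5% ± 12.5 (SD, n = 3) in the libraries labelled Cre-positive and 19.3% ± 8.78 (SD, n = 3) in those labelled Cre-negative, a difference of 8.19 percentage points (exact two-sided permutation test, p = 0.40). With 3 libraries against 3 the smallest p this test can give is 0.10. Cre-positive minus Cre-negative was 30.4 points at vehicle, -7.29 at day 3 and 1.51 at day 7, and without the vehicle Cre-positive library the difference was 1.02. For Ptx3 the shares were 22.0% ± 12.4 and 18.4% ± 4.08 (SD, n = 3 each), a difference of 3.60 points (exact permutation p = 0.70), with -15.1, 15.7 and 10.2 points at the 3 times. It became -0.837 without the day 3 Cre-positive library. The Mrc1 share was higher in the library labelled Cre-positive at each time, by 9.05 points on average (exact permutation p = 0.10, the smallest possible). With cells thinned to 1000 UMIs this difference was 2.42 points (exact permutation p = 0.60), under the stricter gate 7.69 (p = 0.50) and without high doublet scores 8.04 (p = 0.20), each by the exact permutation test. The vehicle Cre-positive library, which set the highest Marco share, is also the one with no Xist-positive member. In the other 5 libraries Marco was found in 33 of 165 members with only Y-linked UMIs and in 50 of 237 with only Xist. Ptx3 was found in 46 (27.9%) and 44 (18.6%) of the same cells, a difference that was not tested.

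Few genes differed between genotypes in the members by more than the spread of the libraries. In an additive model of genotype and time, which leaves 2 residual degrees of freedom, edgeR's quasi-likelihood test called 1 of 9475 genes (0.0106%) and 262 had an unadjusted p under 0.05 (2.77%). That gene was Ccl5, a chemokine of T cells and activated cells, at 20.4, 237, 1.87, 124, 1.60 and 37.4 CPM. It was higher in the library labelled Cre-positive at each time, with a log2 difference of 4.26 (SE 0.38, edgeR adjusted p = 0.0344). Few cells carried it: 5, 5, 1, 12, 2 and 3 members had a UMI. One cell held 295 of the 299 UMIs at vehicle Cre-positive, one held 56 of 105 at day 3 Cre-positive and one held 36 of 45 at day 7 Cre-positive. The call was lost when Marco-positive members were left out (adjusted p = 0.999) and when cells with high doublet scores were left out (adjusted p = 1), and without the day 3 Cre-negative or Cre-positive library (edgeR adjusted p = 0.116 and 0.14). The number of genes called rose to 12 without the vehicle Cre-negative library and to 8 without the vehicle Cre-positive one.

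Other genes with the largest uncalled differences are given as values. Naa25, a subunit of an N-terminal acetyltransferase, was at 25.5, 70.6, 31.8, 80.1, 42.4 and 88.1 CPM, a log2 difference of 1.25 (SE 0.23, edgeR adjusted p = 1). Tmem33 differed by 0.92, Rgs16 by 0.88, P4ha1, a collagen hydroxylase subunit, by 0.87 and Gem, a small GTPase, by 0.79. Cxcl12, the chemokine of reticular stroma, was at 68.8, 30.9, 222, 66.0, 173 and 39.0 CPM, a log2 difference of -1.72 (SE 0.24, edgeR adjusted p = 0.488), with a UMI in 4, 6, 5, 20, 11 and 8 members and 101 of the 119 UMIs at day 3 Cre-negative in 1 cell. Ccl21a, the chemokine that draws dendritic cells into lymphatics, was at 3026, 149.9, 999, 392, 808 and 19.1 CPM. Its log2 difference was -3.62 (SE 0.72), and near-identical copies of this gene make its count uncertain. One cell held 577 of its 1009 UMIs at day 7 Cre-negative. Ebf1 (-1.32), S100a6 (-1.60), Emcn (-1.26) and Pglyrp1 (-2.11) were lower in Cre-positive libraries at each time without being called. Ebf1 is a transcription factor of B cells and stromal cells, Emcn a sialomucin of blood vessels and Pglyrp1 a protein of neutrophil granules. Reticular fibroblast markers summed to 267, 31.7, 67.2, 128, 100.1 and 84.7 CPM in the members. Blood endothelial markers, Emcn among them, summed to 341, 331, 620.1, 548, 579 and 352 CPM, and those of pericytes and smooth muscle to 40.8, 37.3, 125, 56.6, 49.7 and 40.7. Both sums were lower in the library labelled Cre-positive at each time, and the part of RNA from other cells in these values was not tested.

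Autophagy genes, the pathway of the targeted gene, showed no call in 21 tested, with 14 higher, 7 lower and a list median of 0.02. None of the 15 lysosome genes was called (median 0.07). Of the 17 genes of protein folding and stress in the endoplasmic reticulum none was called either. Their median was -0.43, with 15 lower in Cre-positive libraries and 8 at an unadjusted p under 0.05, against 2.77% over all genes. Of 18 immediate-early genes none was called, with 17 higher and 1 lower in Cre-positive libraries. The median of the immediate-early genes was 0.51, and 2 had an unadjusted p under 0.05.

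At day 3 after oxazolone, no gene of 9475 was called against vehicle (0.00%) by edgeR's quasi-likelihood test, and 834 had an unadjusted p under 0.05 (8.80%). DESeq2 called 4, Ccl20 among them. Leaving out the vehicle Cre-negative library, which has the fewest members, raised the count. Vehicle is then the Cre-positive library alone, which has no Xist-positive member, so that count is not read as an effect of time. The largest difference by the naming rule was Ccl20, at 94.3, 59.5, 706, 614, 30.4 and 77.3 CPM. Both day 3 libraries lay above the other 4, with a log2 difference from vehicle of 3.18 (SE 0.42, edgeR adjusted p = 0.339). It had a UMI in 6, 5, 11, 12, 3 and 9 members, and 3 cells held 87.3% and 82.0% of its UMIs in the day 3 libraries. Plat, the plasminogen activator (2.41), Serpinb1a, an inhibitor of neutrophil proteases (2.28), and Ly6a, an interferon-responsive surface protein (2.11), were higher in both day 3 libraries. So were Ctla2a (2.05) and the VEGF receptor Flt1 (1.79). A few cells carried some of these values: in the Cre-negative and Cre-positive day 3 libraries 3 cells held 77.0% and 89.2% of the Plat UMIs and 81.2% and 88.1% of those of Serpinb1a, with 127 of 177 Serpinb1a UMIs in 1 cell of the latter. The 7 blood endothelial markers, Flt1 among them and all with a UMI in members, summed to 5018 to 6483 CPM in blood endothelial cells. In members their sum, given above, was higher in both day 3 libraries (620.1 and 548 CPM) than at vehicle (341 and 331), and the part of blood endothelial RNA in these values was not tested. Lower in both were Lsamp (-1.82) and Pld5 (-1.64), the first higher in the Ptx3 kind above, with Angpt1 (-1.74) and Trmt9b (-1.73). Lsamp had a UMI in 4 and 11 members at vehicle and in 3 of each day 3 library, with 35 of 40 UMIs at day 3 Cre-positive in 1 cell.

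Genes of dividing cells had higher values at day 3. Mki67, a mark of cycling cells, was at 10.2, 5.55, 52.3, 41.2, 32.8 and 16.6 CPM, with a log2 difference of 2.65 (SE 0.41, edgeR adjusted p = 0.488). It was found in 1, 5, 4, 16, 8 and 4 members, so a few cells carried the difference. Top2a, which untangles replicated DNA, was at 5.09, 3.96, 18.7, 58.9, 93.7 and 30.7 CPM. Of 9 cell cycle genes tested, 7 had an unadjusted p under 0.05 and none was called, with a median of 1.14 that ran from 0.70 to 1.78 over the alternatives. The median was 1.63 without the vehicle Cre-negative library. Immediate-early genes had negative differences in 17 of 18, none called, with a median of -0.73, which was -0.19 without the day 3 Cre-negative library and -1.67 without the day 3 Cre-positive one. Fos was at 1004, 1235, 108, 615, 935 and 627 CPM, a log2 difference of -1.77 (SE 0.62, edgeR adjusted p = 0.488). Its lowest value was at day 3 Cre-negative, and the day 3 Cre-positive value lay close to that of day 7 Cre-positive. Chemokines had a median of 0.92 over 12 genes, with 5 at an unadjusted p under 0.05. This median turned to -0.72 without the day 3 Cre-positive library and to -0.12 without the vehicle Cre-positive one.

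At day 7, again no gene was called (0.00% of 9475). By edgeR's test 226 had an unadjusted p under 0.05 (2.39%), and DESeq2 called 2. Cell cycle genes had a median of 1.24, with 5 of 9 at an unadjusted p under 0.05. The median was 0.24 under the looser immune gate and 0.51 under the stricter gate. Stmn1, a regulator of microtubules, was at 66.2, 27.8, 106, 106, 154 and 69.8 CPM (1.28 on the log2 scale) and Hmgb2, a chromatin protein, at 81.5, 65.8, 131, 180.3, 207 and 145 (1.24). Hmgb2 was at -0.02 under the looser immune gate. Ctla2a (1.51), Fibin (1.21), Hs3st5 (1.16), a heparan sulfotransferase, and Cd93 (1.14) had the other highest differences. Cxcl9, an interferon-induced chemokine, was at 199, 77.7, 620.1, 205, 16.8 and 29.9 CPM, with a log2 difference of -2.37 (SE 0.51, edgeR adjusted p = 1). Cxcl10 (-1.14) and Ccl5 (-2.87) are chemokines of the same response, and the direction of both turned with the processing. Ccl5 became 1.06 without Marco-positive members and 1.30 without high doublet scores, and Cxcl10 became 0.27 without the vehicle Cre-negative library. One cell held 312 of the 332 Cxcl9 UMIs at day 3 Cre-negative, and 1 held 49 of 78 at vehicle Cre-negative. For Cxcl10, 1 cell held 147 of 201 UMIs at vehicle Cre-negative. Epsti1 (-2.30) had 231 of its 258 UMIs at vehicle Cre-positive in 1 cell. Hspa1b (-1.15), a heat shock protein, and Ccl21a (-2.13) were lower as well. All 10 MHC class I presentation genes had negative differences at day 7, none called, with a median of -0.15, which ran from -0.23 to 0.03 over the alternatives. Both time comparisons use the same vehicle libraries, so their values are not independent.

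**Figure D5:**
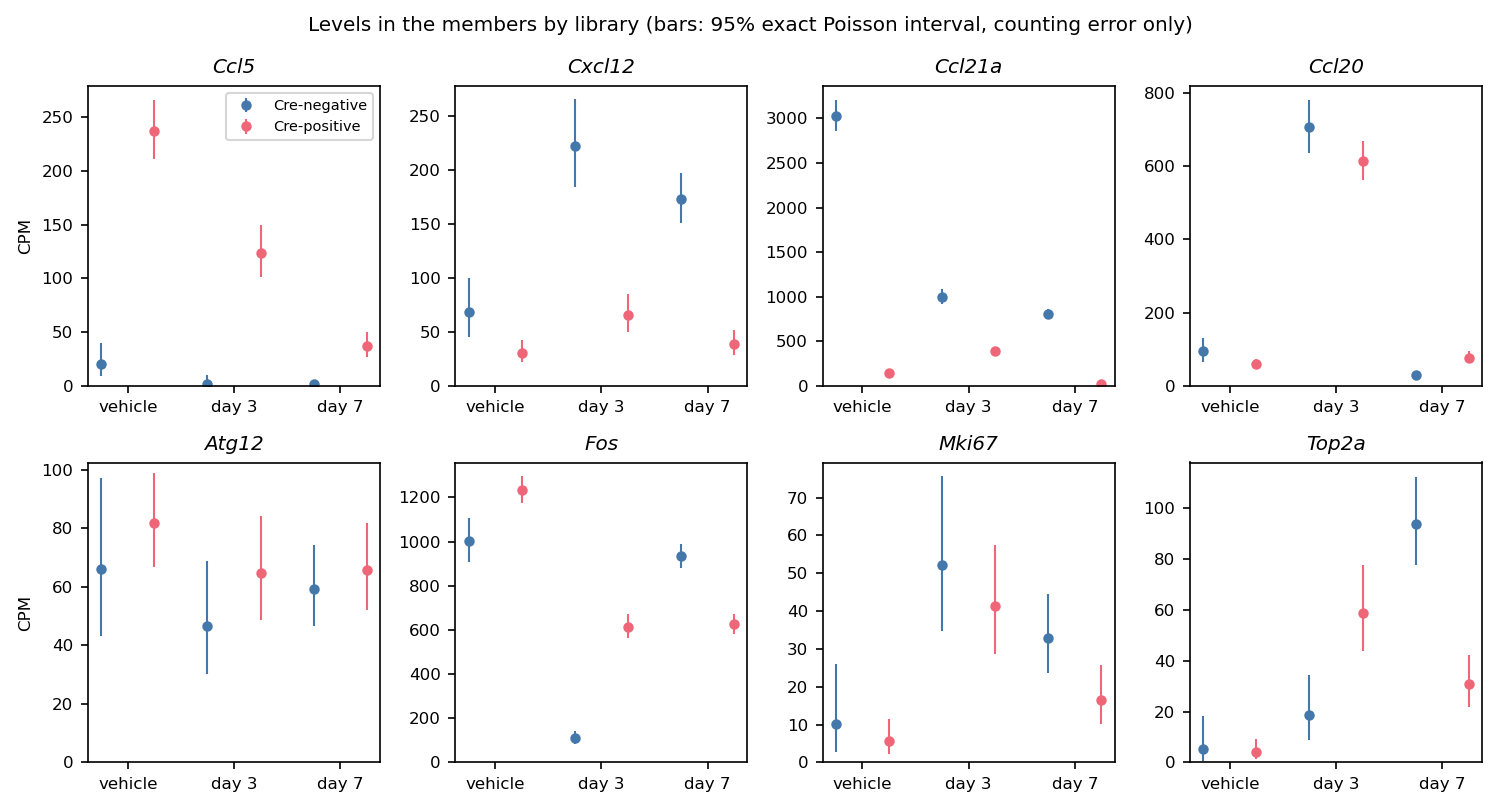
Levels (CPM) of 8 genes summed over the members of each library, by time and genotype label, with exact 95% Poisson intervals that cover counting error only. Ccl20 is at 706 and 614 CPM at day 3 and at or below 94.3 in the other libraries, while Atg12 is not lower in any library labelled Cre-positive than in its Cre-negative partner.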

How the data were processed

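Single-cell RNA of mouse lymph nodes was measured in 12 libraries with a 10x Genomics 3-prime kit, per the labels' protocols. The authors deposited UMI counts per gene and barcode for all barcodes, made with Cell Ranger 7.0.1 on mm10 per the submitters' processing notes. Cells were barcodes with 1000 or more UMIs, 500 or more genes and no more than 10% mitochondrial UMIs. Counts were summed per library over the 682 members or other gated cells (392541 to 1261134 UMIs for members) and tested in edgeR (version 4.0.16, under R 4.3.3) after TMM scaling and its default expression filter, adjusted by Benjamini-Hochberg over all genes tested. The SE of a log2 change was its size divided by the root of its F statistic. Sums of 2 classes from 1 library were fitted with the library as a block, and genotype and time in an additive model over the 6 libraries. Genes of the gates and mRFP stayed out of the tests. Where reads of a gene and an antisense or overlapping gene were split was not given in the sources used here. The tests were run on simulated data as well, which does not show that genes left uncalled were unchanged.

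Genes named are the 12 largest called changes each way at 20 CPM or more. Where under 5 were called, they are the called genes and the 6 largest each way at 50 CPM or more that moved alike in every pair of libraries. One gene that this rule names is not reported here. Members of gene lists were added. Members, lists and rule were chosen with earlier results of these data known. Alternatives were DESeq2 1.42.0, upper-quartile scaling, no expression filter, stricter and looser gates and removal of high Scrublet scores (scanpy 1.11.5). Others were free RNA subtracted at 5% of the UMIs of each sum, and leaving out each library. Thinning was applied to the shares only. Shares have Clopper-Pearson intervals at 95%, which cover counting error only. Of the 32285 gene identifiers, 32158 (99.6%) are in GENCODE M21, which gave the gene coordinates. Promoter entries were found for 3 of the 4 markers, all but Lyve1. Permutation tests used scipy 1.17.1.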

Additional observations from a re-analysis of the deposited data

Results flagged for a closer look

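The genotype difference in the Marco share changed sign between times. Cre-positive minus Cre-negative was 30.4 percentage points at vehicle, -7.29 at day 3 and 1.51 at day 7. The difference in the Ptx3 share did the same, at -15.1, 15.7 and 10.2 points. At vehicle the library labelled Cre-positive was the highest in Marco and the lowest in Ptx3, and at day 3 both signs were turned. With 1 library for each genotype and time the difference between times was not tested.

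A signal was found in an added feature, mRFP, that no comparison used. It is listed in all 3 libraries labelled Cre-positive and in the day 7 Cre-negative library. At least 1 mRFP UMI was found in 10 of 153 members at vehicle Cre-positive (6.54%), 13 of 107 at day 3 Cre-positive (12.1%) and 14 of 136 at day 7 Cre-positive (10.3%). It was found in 0 of 159 members at day 7 Cre-negative, which allows a share of up to 1.89%. Among B cells of the same libraries 0, 1 and 0 cells had a UMI in the Cre-positive ones and 0 in the Cre-negative one. The labels do not say what mRFP marks.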

How the results depend on the processing

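Of the genes chosen by the naming rule or given a value, 522 of 562 values between the Marco and Ptx3 kinds, all 598 against Madcam1-positive cells and 516 of 518 against Ackr4-positive cells kept their direction and their side of the threshold under the alternatives. For day 3, day 7 and genotype 150 of 181, 146 of 168 and 165 of 182 did so. Of the rest 31, 18 and 13 became called, 4 at day 7 changed direction and 4 for genotype lost their call. Calls were lost in 40 values between the Marco and Ptx3 kinds and in 1 against Ackr4-positive cells, Plac8 under the looser immune gate. Stab2 against Ackr4-positive cells, which was not called, became 0.03 under the stricter gate. DESeq2 called 1991 genes against Madcam1-positive cells, 4 at day 3, 2 at day 7 and 2 for genotype. With no expression filter 242 genes were called at day 3, 49 at day 7 and 39 for genotype. The genotype count was 2 under the looser immune gate and 0 without cells of high doublet scores or without Marco-positive members, the last chosen after seeing the data. Leaving out 1 library gave 0 to 367 calls at day 3, 0 to 82 at day 7, 1 to 12 for genotype, 365 to 530 between the Marco and Ptx3 kinds, 2561 to 2762 against Madcam1-positive cells and 2462 to 2962 against Ackr4-positive cells. The highest counts for time came without the vehicle Cre-negative library, which holds 61 members. Vehicle is then the Cre-positive library alone, which has no Xist-positive member, so these counts are not read as an effect of time. The cause of the higher counts was not tested. The Marco share difference ran from 1.02 to 12.9 percentage points, that of Ptx3 from -0.837 to 10.7 and that of Mrc1 from 6.30 to 11.5, when a library was left out. At day 7, Hmgb2 became -0.02 under the looser immune gate and Ccl5 became 1.06 without Marco-positive members and 1.30 without high doublet scores. Cxcl10 ran from -2.0 to 0.27 when a library was left out, the highest without vehicle Cre-negative. No paired analysis was possible by replicate number because each group is 1 library. Pairing was by time for genotype, in the additive model, and by library for the classes, as a block.

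The smallest sum in the condition comparisons holds 61 cells and 392541 UMIs, and Marco and Ptx3 kinds were summed over as few as 7 cells in a library.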

Other observations

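The CD45-bound libraries were searched with the same membership rule. Of their 45341 cells, 23 passed the lymphatic gate and 8 passed the whole rule. Of these 8, 3 came from the vehicle Cre-positive library and carried Marco, and 1 from the day 3 Cre-negative library carried Ptx3. The sizes of the bound and unbound fractions were not used here, so these counts cover only the cells sequenced.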
